A study of Mus musculus with 31 samples.

Results

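The tubular injury genes described here are 9 genes chosen by name: Havcr1, Krt20, Lcn2, Clu, Krt18, Sox9, Timp1, Cp and Spp1. Every array probe annotated to these symbols was taken, and the kidney was set first, with liver and blood for contrast. Of the 9 genes, 8 had a named probe, out of 16593 genes named by at least 1 probe. Timp1 had 2 probes and the other 7 genes had 1 each, which gives 9 probes. Spp1, which encodes the secreted phosphoprotein osteopontin, had no probe under its symbol in the annotation used and was not analysed here.

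The arrays come from male C57BL/6J mice, 20 to 30 weeks old, all given lipopolysaccharide (LPS), the bacterial endotoxin. The groups differ in what was given with LPS: modIVIg, a modified preparation of intravenous immunoglobulin whose modification is not given in the sources used here; IVIg, the unmodified immunoglobulin; or vehicle. Kidney arrays numbered 4 for modIVIg, 4 for IVIg and 3 for vehicle, liver arrays 4 in each group, and blood arrays (circulating leukocytes) 1 for modIVIg, 3 for IVIg and 3 for vehicle. No arrays of mice without LPS were analysed, so none of the comparisons gives the response to LPS itself, and neither doses nor the time of sampling are given in the sources used here. The labels do not say that each array is a separate mouse, so the p values measure the spread between arrays, which may be partly technical.

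In the kidney, injured epithelial cells of the nephron switch on a set of genes that are low or silent in the healthy tubule. Havcr1 (kidney injury molecule 1) is a phosphatidylserine receptor placed on the apical membrane of injured proximal tubule cells, and Lcn2 (neutrophil gelatinase-associated lipocalin) is a secreted protein that binds bacterial siderophores. Both are used as markers of acute kidney injury, but Lcn2 is also made by hepatocytes in the acute-phase response and stored in neutrophil granules. Krt20 and Krt18 are type I keratins of epithelial intermediate filaments, Clu (clusterin) is a secreted chaperone, Sox9 is a transcription factor of epithelial progenitor and repairing cells, Timp1 is an inhibitor of matrix metalloproteinases, and Cp (ceruloplasmin) is a copper-carrying ferroxidase that the liver secretes into plasma.

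The array data of a kidney are sums over all its cells, so fewer cells of a type and less RNA per cell cannot be told apart. Markers were read to check the tissue labels. Of these, 8 of 9 kidney tubule markers were detected on every kidney array, with Pax2 detected on none, and 2 of the 9 were detected on any liver array. In blood, 4 of 5 leukocyte markers with a probe were detected on any array. Of 7 collecting duct markers, Slc4a1 alone was detected in blood, on every array. How pure the leukocytes were was not tested. A probe counted as detected where the deposited detection p was under 0.01, which held for 34.8% to 41.2% of probes on kidney arrays, 31.6% to 35.3% on liver arrays and 8.09% to 18.7% on blood arrays. The second blood modIVIg array, on which 0.712% of probes were detected, was left out, so 30 of 31 arrays were used. In the kidney, arrays with replicate numbers 1 and 2 stood apart from those with numbers 3 and 4. Over all tested features, arrays with the same number deviated together across treatments, which could not be told apart from that split.

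The promoters of Krt20 and Lcn2 are shown because Krt20 had the widest spread between kidney arrays and Lcn2 was detected on every array of all 3 organs, and because the table used holds 1 start for each. Krt20 lies on chr11:99428385-99438153 and Lcn2 on chr2:32384637-32387739 (GRCm38.p6), both on the minus strand. The 250 bases upstream of each start, from RefSeq, are chr11:99438154-99438403 for Krt20 and chr2:32387740-32387989 for Lcn2, written 5′ to 3′ on the strand of the gene.
Krt20: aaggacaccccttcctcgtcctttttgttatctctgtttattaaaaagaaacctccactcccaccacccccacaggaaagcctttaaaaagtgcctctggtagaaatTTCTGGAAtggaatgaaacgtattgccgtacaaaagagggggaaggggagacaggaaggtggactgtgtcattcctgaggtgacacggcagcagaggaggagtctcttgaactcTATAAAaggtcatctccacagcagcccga
Lcn2: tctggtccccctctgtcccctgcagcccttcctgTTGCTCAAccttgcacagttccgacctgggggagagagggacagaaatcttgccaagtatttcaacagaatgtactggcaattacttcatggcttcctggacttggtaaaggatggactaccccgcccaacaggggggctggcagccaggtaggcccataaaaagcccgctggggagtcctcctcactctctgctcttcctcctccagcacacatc
Capitals mark matches to 2 of the 5 motifs searched on both strands. TATAAA, the TATA box, occurs in the Krt20 window at -29 to -24, and 12.4% of 32851 promoter windows of the same length hold it. TTNNGNAA, a loose C/EBP pattern, occurs in Krt20 at -143 to -136 and in Lcn2 at -216 to -209, and 36.8% of windows hold it. The AP-1 pattern TGANTCA (6.75% of windows), the STAT pattern TTCNNNGAA (7.02%) and the NF-kB pattern (7.25%) have no match in either window. The matches do not overlap each other, and they describe letters only.

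Havcr1 was highest on 2 modIVIg kidneys. Its bead signal, the mean brightness of the probe's beads, was 2346.8, 1120.9, 1241.4 and 2918.2 in modIVIg kidneys, against 1065.3, 748.6, 223 and 1067.7 in IVIg kidneys and 827.6, 300.5 and 1382.2 in vehicle kidneys. All 4 modIVIg signals lay above all 4 IVIg signals before normalisation, but not after it, and vehicle replicate 3 lay above modIVIg replicates 2 and 3. Havcr1 lies on chr11:46739822-46779578 and was detected on all 11 kidney arrays.

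Of the 5 highest Krt20 signals in kidney, 4 were those of the modIVIg kidneys. It measured 1534.2, 1860.2, 1140.3 and 1279.7 in modIVIg kidneys, 608, 564.4, 144.2 and 1329.8 in IVIg kidneys, and 677.2, 248.6 and 551.9 in vehicle kidneys. Every modIVIg kidney lay above every vehicle kidney, while IVIg replicate 4 lay among the modIVIg values and IVIg replicate 3 was not detected. In the uninjured urinary tract Krt20 is a keratin of the superficial urothelium.

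Sox9 was detected on 10 of 11 kidney arrays. It measured 448.6, 553.1, 358.6 and 480.9 in modIVIg kidneys, 504.5, 652.6, 118.3 and 382.4 in IVIg kidneys, and 363.2, 292.1 and 262.4 in vehicle kidneys, with IVIg replicate 3 not detected. By bead signal vehicle replicate 1 lay just above modIVIg replicate 3, whereas on the normalised log2 scale all modIVIg kidneys lay above all vehicle kidneys.

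Lcn2 and Clu, the secreted lipocalin and the secreted chaperone, were detected on all 11 kidney arrays with groups that overlapped. Lcn2 measured 35567, 32351.8, 22085.1 and 32423.2 in modIVIg kidneys, 37173.1, 43288.2, 5765.2 and 33742.9 in IVIg kidneys, and 24247, 18896.9 and 42026.2 in vehicle kidneys. Clu, on chr14:65968483-65981548, measured 27989.3, 18856.1, 17494.7 and 25290.8 in modIVIg kidneys, 16754.5, 19048.6, 8442.1 and 20109.5 in IVIg kidneys, and 18904.5, 10865.9 and 21453.2 in vehicle kidneys. For both genes IVIg replicate 3 was the lowest kidney array, vehicle replicate 2 was the lowest vehicle kidney, and the 3 groups overlapped.

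Krt18, Timp1 and Cp were detected on all 11 kidney arrays. Krt18 ranged from 286.3 to 733.3 in modIVIg kidneys, from 236.2 to 757.3 in IVIg kidneys and from 364.9 to 813 in vehicle kidneys. Timp1, by the probe with the higher mean, ranged from 1342 to 2581.1 in modIVIg kidneys, from 1017.5 to 2112.5 in IVIg kidneys and from 1326.5 to 2280.7 in vehicle kidneys. Cp ranged from 1399.3 to 2866.9 in modIVIg kidneys, from 1350.1 to 2375.1 in IVIg kidneys and from 1694.9 to 2870 in vehicle kidneys. In all 3 genes the groups overlapped.

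**Figure D1:**
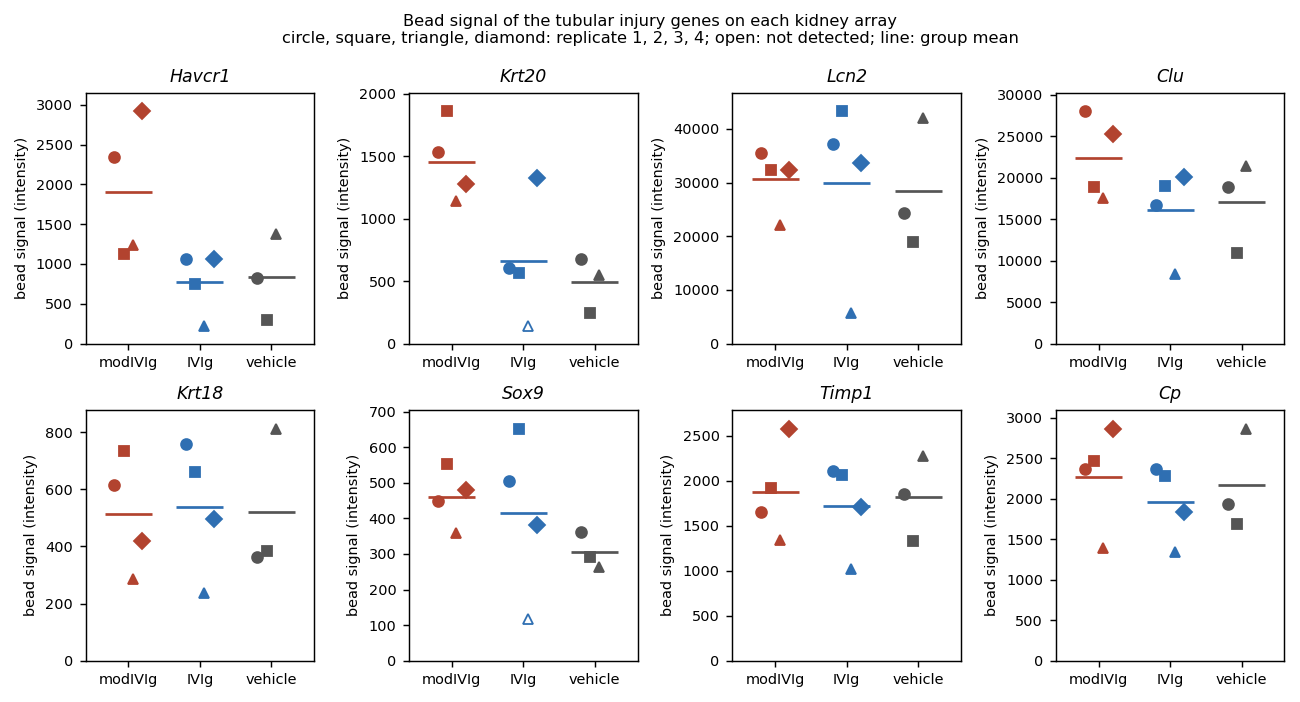
Bead signal (vertical axis, intensity, starting at 0) of the 8 tubular injury genes with a probe on each of the 11 kidney arrays, with modIVIg, IVIg and vehicle from left to right, a symbol for each replicate number and a line at the group mean. Krt20 in modIVIg kidneys (1140.3 to 1860.2) lies above every vehicle kidney, and IVIg replicate 3, the blue triangle, is the lowest point in every panel.

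For modIVIg against vehicle kidneys, differences were tested with limma on background-corrected, quantile-normalised log2 values (neqc) over 8544 features, with Benjamini-Hochberg adjustment. None of the 8 injury genes passed an adjusted p of 0.05, and neither did any other feature (0% called). At an unadjusted p under 0.05 stood 0 of the 8, against 2.65% of all features. Krt20 averaged 10.41 ± 0.22 (SD, n = 4) on the log2 scale in modIVIg kidneys and 8.39 ± 0.85 (SD, n = 3) in vehicle kidneys, a difference of 2.02 ± 0.94 (SE, limma adjusted p 0.9971) with a 95% interval of -0.06 to 4.11. Havcr1 averaged 10.73 ± 0.65 in modIVIg kidneys and 9.17 ± 1.23 in vehicle kidneys, a difference of 1.56 ± 0.77 (SE, limma adjusted p 0.9971) with an interval of -0.14 to 3.26. The Sox9 difference was 0.89 ± 0.79 and the Clu difference 0.40 ± 0.27 (SE, log2).

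The other 4 injury genes differed by 0.05 to 0.15 on the log2 scale between modIVIg and vehicle kidneys. All 8 estimates were above 0, where 54.5% of all features were, and their median was 0.28 against 0.03 over all features. The 8 values are not independent, since they come from the same arrays and moved together across them. The modIVIg and vehicle values did not overlap for 2 of the 8, Krt20 and Sox9, and did not overlap for 5.24% of all features. Without IVIg replicate 3, an array of neither group that enters this comparison through the shared spread and the normalisation of the kidney arrays together, Krt20, Sox9 and Havcr1 had unadjusted limma p values of 0.0032, 0.00244 and 0.0222, with adjusted p values of 0.784, 0.6722 and 0.9862. The share of all features under 0.05 in that fit is not given here, so nothing is read from these unadjusted values. Without vehicle replicate 2, the lowest vehicle kidney for Havcr1 and Krt20, the differences were 0.90 for Havcr1, 1.54 for Krt20 and 0.20 for Clu, and 4 of the 8 were above 0. Without vehicle replicate 3 they were 2.11 for Havcr1, 2.19 for Krt20 and 0.50 for Krt18.

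Within replicates 1 and 2 the modIVIg minus vehicle difference was 2.23 for Krt20, 1.79 for Havcr1 and 0.85 for Krt18, and all 8 genes were above 0. Within replicates 3 and 4, where a single vehicle kidney stands, it was 1.64 for Krt20, 0.76 for Havcr1 and -1.21 for Krt18, and 4 of the 8 were above 0. Krt18, Lcn2, Timp1 and Cp therefore had opposite signs on either side of that split, while Krt20, Havcr1, Clu and Sox9 kept theirs.

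For modIVIg against IVIg kidneys, Krt20 differed by 2.21 ± 0.87, Havcr1 by 1.82 ± 0.71 and Clu by 0.63 ± 0.25 (SE, log2). Krt20 averaged 10.41 ± 0.22 in modIVIg and 8.20 ± 2.13 in IVIg kidneys (SD, n = 4 each), and Havcr1 10.73 ± 0.65 and 8.91 ± 1.39. Again none of the 8 passed in limma (adjusted p 1, 0% of features called). These 3 genes had an unadjusted p under 0.05, with limma p values of 0.0286, 0.0275 and 0.0302 over all 11 arrays, a level reached by 3.8% of all features. All 8 estimates were above 0, against 47.9% of features, with a median of 0.53 against -0.01. On the normalised scale no injury gene separated the 2 groups completely, where 2.39% of features did.

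The size of the modIVIg minus IVIg difference depended on IVIg replicate 3, to an extent that varied by gene. Without that array the difference was 1.24 ± 0.51 for Krt20, 1.16 ± 0.57 for Havcr1 and 0.41 ± 0.21 for Clu (SE, log2). Sox9, at 0.94 with all arrays, came to 0.02 without it. Lcn2 came to -0.21, against 0.42 with all arrays, and Krt18 to -0.28, against 0.16. In all, 6 of the 8 stayed above 0, and Krt20 alone had an unadjusted p under 0.05. The share of all features at that level without this array is not given here.

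For IVIg against vehicle kidneys, all 8 estimates were below 0, between -0.05 for Sox9 and -0.27 for Lcn2, with a median of -0.22 against 0.04 over all features. None passed in limma (adjusted p 0.9996, 0% of features called), none had an unadjusted p under 0.05 (1.36% of features did), and no gene's groups separated (1.7% of features did). Without IVIg replicate 3, 5 of the 8 turned positive: Krt20 stood at 0.78, Sox9 at 0.87, Havcr1 at 0.40, Lcn2 at 0.36 and Krt18 at 0.35. Within replicates 1 and 2 all 8 were above 0, with a median of 0.47. Within replicates 3 and 4 all 8 were below 0, with a median of -0.79. Other arrays also turned signs: without vehicle replicate 3 Havcr1 stood at 0.29 and Krt18 at 0.34, without vehicle replicate 1 Krt20 stood at 0.13 and Sox9 at 0.07, and without vehicle replicate 2 Sox9 stood at 0.05. The sign of this difference was therefore not stable. It turned for 5 of the 8 genes when single arrays were left out, and for all 8 between replicates 1 and 2 and replicates 3 and 4. The 3 kidney comparisons share their arrays in pairs, so their values are given side by side and are not separate evidence.

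**Figure D2:**
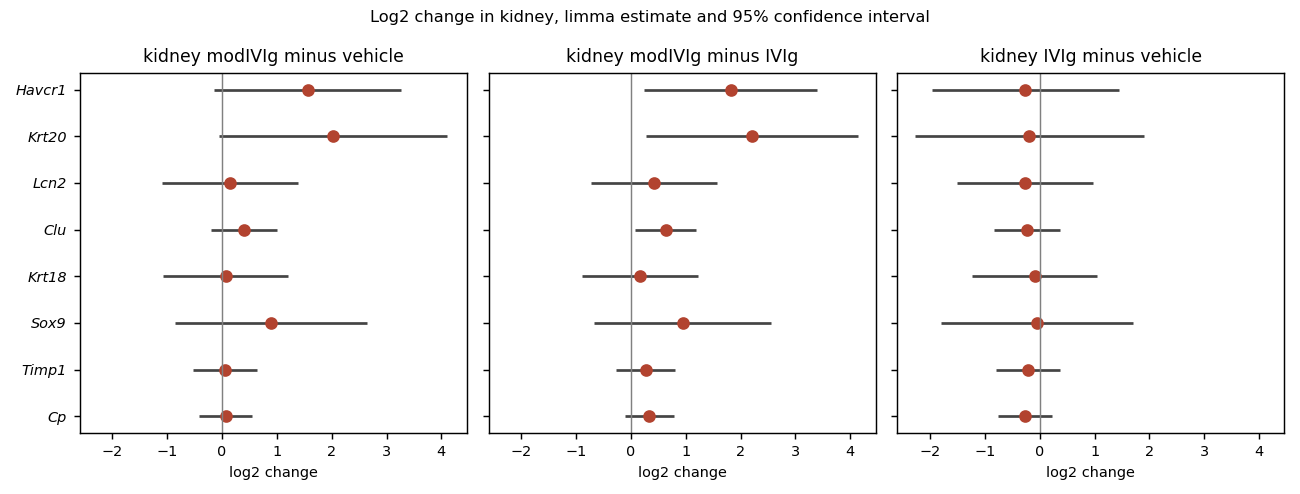
Log2 difference (horizontal axis) with its 95% confidence interval from limma for the 8 tubular injury genes in 3 kidney comparisons. In modIVIg minus vehicle every interval includes 0, in modIVIg minus IVIg those of Havcr1, Krt20 and Clu lie above 0 before adjustment, and in IVIg minus vehicle every interval includes 0.

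IVIg replicate 3 was the lowest of the 11 kidney arrays for all 8 injury genes, with a median of -2.0 from each gene's own median on the log2 scale. Over all 8544 features the same array was lowest for 16% and highest for 30.1%, and its median deviation was 0.11. Among the other arrays, modIVIg replicate 4 was the highest for 4 of the 8 injury genes and for 11.7% of all features. Vehicle replicate 3 was the highest for 2 of the 8 and for 9.91% of all features. Vehicle replicate 2 lay below the median for all 8 genes, with a median deviation of -0.50 against -0.0485 over all features. It was not the lowest for any of the 8, and it was the lowest for 15.3% of all features.

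Several other gene lists had their lowest or highest kidney sum on IVIg replicate 3. The summed normalised level of 37 other tubular injury and repair genes was 104774 on that array, where the remaining 10 kidney arrays gave 161945 to 200076. The summed level of 12 neutrophil markers was 1352.92 there, against 2106.91 to 3479.19 on the remaining 10. The summed level of 7 collecting duct markers was highest there, at 4721.2 against 2061.4 to 3052.05 on the remaining 10, and so was that of 2 podocyte markers, at 1256.32 against 836.828 to 1166.08. Proximal tubule function genes, summed over 15 genes, gave 225451 on that array, within the range of the other kidney arrays (167775 to 233807). The part of these cells in this array's values was not tested.

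**Figure D3:**
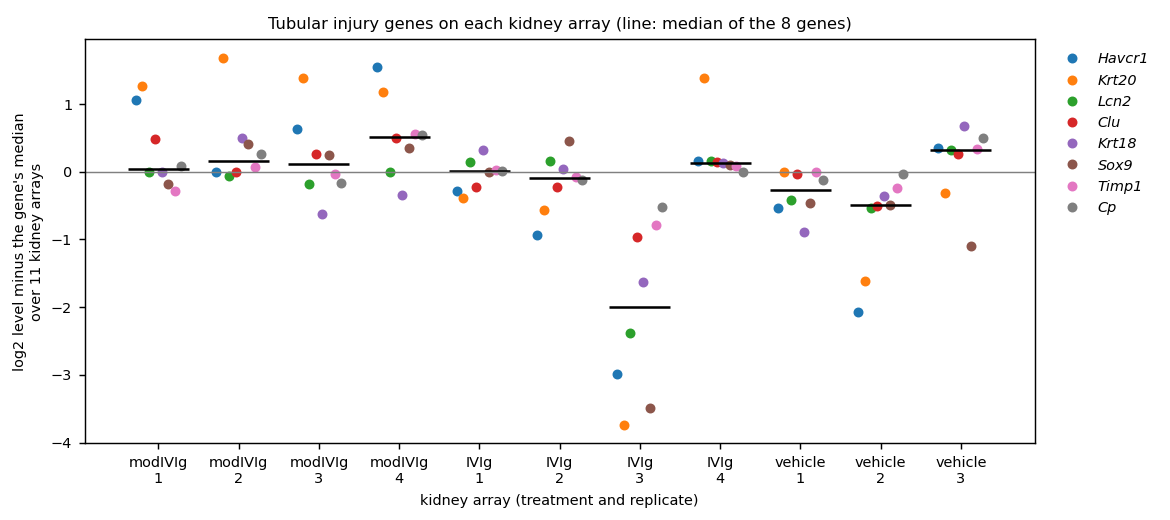
Log2 level of each tubular injury gene minus its own median over 11 kidney arrays (vertical axis), by array, with a line at the median of the 8 genes. IVIg replicate 3 lies at -2.0, with every gene below 0, while the other 10 arrays have medians between -0.50 and 0.52.

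Havcr1 and Clu moved together most closely across kidneys. Over 11 arrays Pearson's r was 0.978 and Spearman's rho 0.973, each with an adjusted permutation p of 0.00028 over the 28 pairs of the 8 genes. The raw p, 1e-05, is the smallest that 100000 permutations can give. The correlation was 0.941 without IVIg replicate 3 and vehicle replicate 2, the arrays farthest from the median of Havcr1, and 0.938 within replicates 1 and 2 (n = 6). Replicates 3 and 4 hold too few arrays for a value. Lcn2 and Krt18 had r = 0.848 and rho = 0.804, with adjusted permutation p values of 0.00588 and 0.0589, and r = 0.76 without IVIg replicate 3.

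Of the 28 pairs, all had r above 0 and the median was 0.717. By Pearson's r 17 pairs had an adjusted permutation p under 0.05, and by Spearman's rho 1 pair did. No such share was taken over pairs of all features, so these counts are not read as particular to the injury genes. Without IVIg replicate 3 the median r was 0.402 and 26 pairs were above 0, and within replicates 1 and 2 the median was 0.38. Havcr1 with Lcn2 had r = 0.753 over 11 arrays, 0.465 without IVIg replicate 3 and 0.543 within replicates 1 and 2. It was 0.0232 without the 2 arrays farthest from the median of Havcr1, a choice that narrows the range of Havcr1. The size of this relation thus depended on which arrays were kept. All 28 values come from the same arrays and include any difference between treatments. The permutations exchange all 11 arrays freely. They take no account of any pairing by replicate number or of the split between numbers, so these p values may be too small.

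**Figure D4:**
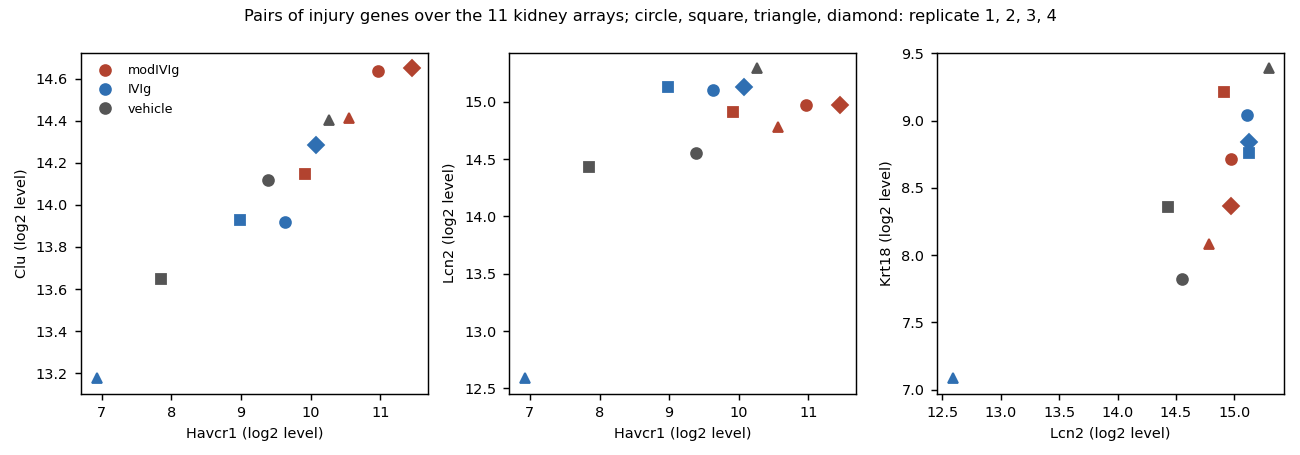
Normalised log2 levels of 3 pairs of tubular injury genes, 1 point per kidney array, coloured by treatment with a symbol for each replicate number. Havcr1 and Clu lie along a line in all treatments (r = 0.978), whereas in the Havcr1 with Lcn2 and Lcn2 with Krt18 panels IVIg replicate 3 stands far from the other points.

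Among 7902 genes ranked by Pearson's r with Havcr1 over the 11 kidney arrays, the closest that are not injury genes of this list were Uchl3 (0.961), Denn2b (0.959) and Angptl4 (0.955). Without IVIg replicate 3 these values were 0.932, 0.925 and 0.921. For Lcn2 the closest were Cxcl2 (0.987), which encodes a neutrophil-attracting chemokine, Eif1a (0.977) and Osmr (0.975), the receptor for oncostatin M. Without that array they were 0.887, 0.818 and 0.772. These values are descriptions picked as the highest of many.

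The other genes of the injury response were divided in direction. Of 40 other tubular injury and repair genes, 30 were tested in kidney, and none passed in limma in any of the 3 comparisons. In modIVIg against vehicle kidneys 12 were higher and 18 lower, with a median of -0.06 against 0.03 over all features. The highest were Atf3, a stress-induced transcription factor, at 1.18 ± 0.90, and Hmox1, haem oxygenase 1, at 1.06 ± 0.50. The lowest were Vcam1, an adhesion molecule for leukocytes, at -0.70 ± 0.27, and S100a6 at -0.63 ± 0.63 (SE, log2).

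In modIVIg against IVIg kidneys 19 of the 30 were higher and 11 lower, with a median of 0.07 against -0.01. Atf3 stood at 1.38 ± 0.83 and Cdkn1a, the cell-cycle inhibitor p21, at 1.30 ± 0.53, while Vcam1 stood at -0.57 ± 0.25 and Timp2 at -0.39 ± 0.28. In IVIg against vehicle kidneys 11 were higher and 19 lower, with a median of -0.06 against 0.04. The ends of that list were Hmox1 at 0.38 ± 0.50 and Ccn2 at 0.34 ± 0.22, and Sprr1a at -0.79 ± 0.52 and S100a6 at -0.70 ± 0.63.

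Genes of proximal tubule function, the transporters and enzymes of the healthy proximal cell, were mostly lower in modIVIg kidneys by small amounts. Of 18 listed, 12 were tested, and none passed in limma. Against vehicle 2 were higher and 10 lower, with a median of -0.14 against 0.03 over all features, of which 54.5% were higher. Slc5a2, the glucose transporter SGLT2, stood at 0.10 ± 0.18 and Slc27a2 at 0.05 ± 0.13, while Acsm2 stood at -0.80 ± 1.99 and Slc13a3, a dicarboxylate transporter, at -0.57 ± 0.26. Against IVIg 3 were higher and 9 lower, with a median of -0.09 against -0.01 over all features, of which 47.9% were higher. There Slc5a2 stood at 0.08 ± 0.17 and Acsm2 at 0.04 ± 1.84, and Slc13a3 at -0.56 ± 0.24 and Slc22a12, a urate transporter, at -0.49 ± 0.18. Summed over 15 genes, the level was 216169, 221786, 181693 and 167775 on modIVIg replicates 1 to 4. On vehicle replicates 1 to 3 it was 222748, 233807 and 177707. IVIg replicates 1 to 4 gave 225857, 220810, 225451 and 178375. In modIVIg and vehicle kidneys the sums thus followed the split between replicate numbers, which the groups do not hold in equal shares. The part of that split in these counts was not tested.

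In IVIg against vehicle kidneys 7 of the 12 proximal tubule genes were higher and 5 lower, with a median of 0.01. The median of all features was 0.04, and 57.9% of them were higher. Aqp1, a water channel, stood at 0.23 ± 0.26 and Slc22a8 at 0.22 ± 0.32, while Acsm2 stood at -0.83 ± 1.99 and Kap at -0.12 ± 0.49.

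Markers of other cells were also read in the kidney arrays, beside the injury genes they share cells with. For Lcn2, which neutrophils carry, the summed level of 12 neutrophil markers was 2225.72 to 3479.19 in modIVIg kidneys, 1352.92 to 2912.58 in IVIg kidneys and 2106.91 to 2229.56 in vehicle kidneys. Of the 12, 7 were detected on any kidney array, and Cxcr2, Elane, Mmp8, Ngp and Retnlg on none. For Krt20, the summed level of 8 urothelium markers was 387.181 to 2807.44 in modIVIg kidneys, 410.241 to 1559.26 in IVIg kidneys and 415.629 to 3107.37 in vehicle kidneys. The lowest of these sums was that of modIVIg replicate 3, on which none of the 8 was detected, with a Krt20 bead signal of 1140.3. The highest modIVIg sum, 2807.44, was that of replicate 2, which had the highest Krt20 signal in kidney, 1860.2. The 5 tested urothelium genes were all lower in modIVIg than in vehicle kidneys, with a median of -0.45 against 0.03 over all features. They were also all lower in IVIg than in vehicle kidneys, with a median of -0.55 against 0.04. The part of urothelium in the Krt20 values was not tested.

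Collecting duct markers, summed over 7 genes, gave 2061.4 to 2652.92 in modIVIg kidneys, 2773.29 to 4721.2 in IVIg kidneys and 2542.49 to 3052.05 in vehicle kidneys, with Avpr2 detected on none. The modIVIg sums lay below all IVIg sums, and the 6 genes tested were all lower in modIVIg than in IVIg kidneys, with a median of -0.39 against -0.01 over all features. Adipocyte markers had the largest median difference of the marker lists in both comparisons with IVIg kidneys. Their summed level over 8 genes was 1388.67 to 5252.37 in modIVIg kidneys, 463.901 to 744.412 in IVIg kidneys and 681.114 to 6577.72 in vehicle kidneys, with Fabp4, Lipe, Plin1 and Retn detected on no kidney array. For Timp1, which fibroblasts also make, the sum over 6 fibroblast and pericyte markers was 5464.65 to 7392.31 in modIVIg kidneys, 3371.19 to 7545.32 in IVIg kidneys and 5194.69 to 6826.35 in vehicle kidneys, with Col1a2 detected on none. The part of these cells in the injury genes' values was not tested.

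Liver and blood set the kidney values in contrast. Havcr1 and Krt20 were detected on none of 12 liver and none of 7 blood arrays, with Havcr1 bead signals of 111.9 to 168.4 in liver and 87.8 to 124 in blood. Krt18 and Sox9 were detected on no blood array, Krt18 on all 12 liver arrays and Sox9 on 9 of 12. Lcn2, Clu and Timp1 were detected on all 30 arrays, and Cp on all kidney and liver arrays and on 3 of 7 blood arrays.

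Between kidney and liver of vehicle mice, 5 of the 8 genes passed an adjusted p of 0.05 in limma, where 45.1% of 8958 features did. Havcr1 was at least 4.39-fold and Krt20 at least 2.56-fold higher in kidney. The limma adjusted p values, 4.71e-05 and 0.000789, belong to the measured log2 differences of 3.46 and 2.62 and not to these bounds. The bounds set the kidney mean against the lowest signal of any probe detected on each liver array. Both genes entered the test through kidney alone, where they are high, so they had to differ. Krt18 was lower in kidney by a log2 difference of -4.48 ± 0.36, Cp by -3.80 ± 0.27 and Clu by -0.88 ± 0.27 (SE, limma adjusted p 9.27e-11, 9.8e-12 and 0.00977). The Clu call was lost without vehicle kidney replicate 2, at -0.63 (limma adjusted p 0.0941, and 1.54e-06 to 0.0941 over all alternatives).

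Lcn2 differed by -1.11 ± 0.46 (SE) between kidney and liver, with a limma adjusted p of 0.0501, and it passed without kidney IVIg replicate 3 (adjusted p 0.000194, and 2.94e-06 to 0.18 over all alternatives), an array of neither group. Lcn2 in liver measured 50901.6 to 59831.7, which is 86.9% to 100% of the brightest probe on the same array, at the top of the measured range. The files used carry no flag for saturated beads. If those beads were at their ceiling, the difference is a lower limit of its size, so nothing is read from its passing or missing the threshold. Timp1 (0.26 ± 0.39) and Sox9 (-0.15 ± 0.60) did not pass. With each organ normalised alone the median of all features between kidney and liver was 0.53, against 0.05 after joint normalisation, and 78.5% of called features were higher in kidney, against 59.7%. Sox9 then stood at 0.46. The bead signal of Krt18 was 364.9 to 813 in vehicle kidneys and 4756.5 to 7570 in vehicle livers, and that of Cp was 1694.9 to 2870 and 21941.6 to 29739.7.

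Between kidney and blood of vehicle mice 67.1% of 8949 features passed in limma, and so did 6 of the 8 injury genes, from which nothing is read: 4 of the 6 entered the test through kidney alone and had to differ. These were Havcr1, Krt20, Krt18 and Sox9, which were detected on no blood array and gave no fold, because their kidney means lay under the lowest detected level of the blood arrays after joint normalisation. Cp was higher in kidney by 1.20 ± 0.29 (limma adjusted p 0.000828). Timp1 stood at -1.27 ± 0.42 (limma adjusted p 0.0103) after joint normalisation of all 30 arrays, but at 2.37 (limma adjusted p 4.91e-05, the lowest of its alternatives, of which the highest was 0.0764) when each organ was normalised alone. Its bead signals were 1326.5 to 2280.7 in vehicle kidneys and 350.6 to 895.4 in vehicle blood. Lcn2 (-0.24, or 0.98 with each organ alone) and Clu (0.06, or 2.29) were also higher with the second scaling, so that the sign of Timp1 and Lcn2 and the size for Clu depend on the scaling. The median of all features shifted too: it was 0.53 after joint normalisation and 2.99 with each organ alone, and 61.6% and 94.9% of called features were higher in kidney. Relative to that median Timp1 stood at -1.80 and -0.62, Lcn2 at -0.77 and -2.01, Clu at -0.47 and -0.70, and Cp at 0.67 and 2.11.

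**Figure D5:**
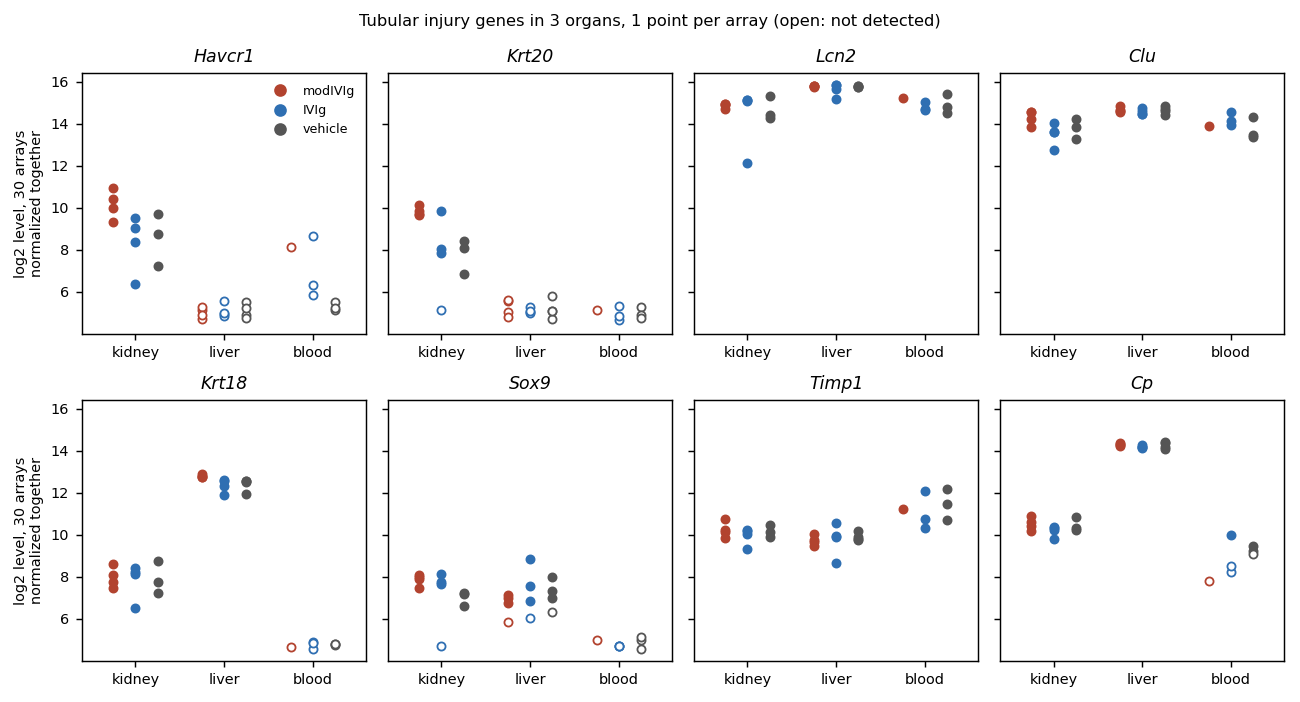
Log2 level (vertical axis) of the 8 tubular injury genes after joint normalisation of 30 arrays, 1 point per array, in kidney, liver and blood, with modIVIg, IVIg and vehicle from left to right within each organ and open points where the probe was not detected. Havcr1 and Krt20 are detected in kidney only, and Krt18 and Cp are higher in liver than in kidney on every array.

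In liver, 6 injury genes were tested for each treatment comparison and none passed in limma, while 4.92% of 7155 features passed in modIVIg against vehicle, 0% in IVIg against vehicle and 1.09% in modIVIg against IVIg. Krt18 was the 1 injury gene with an unadjusted p under 0.05, a level that 24.5% of features reached against vehicle and 16.4% against IVIg. Its bead signal was 7783.9, 7697.3, 7477.2 and 8740.1 in modIVIg livers, 5921.5, 6841.9, 4672.1 and 8124.1 in IVIg livers, and 6501.6, 4756.5, 7570 and 7007 in vehicle livers. On the normalised scale the modIVIg livers lay above all others, by 0.44 ± 0.20 against vehicle (SE, limma adjusted p 0.1899) and by 0.49 ± 0.20 against IVIg (limma adjusted p 0.2375). Groups did not overlap for 19.8% of features in modIVIg against vehicle livers and for 9.64% in modIVIg against IVIg livers. Without liver vehicle replicate 2, the lowest vehicle liver, the first difference was 0.27. In IVIg against vehicle livers none of the 6 had an unadjusted p under 0.05, and 1.79% of features did.

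The test of the kidney minus the liver change covered the 6 genes tested in both organs. None passed in limma, and 0% of 6739 features did. None had an unadjusted p under 0.05, where 3.72% of features did for modIVIg minus vehicle, 0.341% for IVIg minus vehicle and 3.25% for modIVIg minus IVIg. Sox9 had the largest such difference among the 6, at 1.44 ± 0.79 for modIVIg minus IVIg, and Clu stood at 0.70 ± 0.35 (SE, log2). Havcr1 and Krt20 could not enter this test because the liver did not detect them.

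In blood, 4 injury genes were tested for IVIg against vehicle. Clu stood at 0.79 ± 0.45, Cp at -0.16 ± 0.40, Lcn2 at -0.26 ± 0.49 and Timp1 at -0.49 ± 0.63 (SE, log2). None passed in limma (0% of 3975 features did) and none had an unadjusted p under 0.05 (1.13% of features did). Clu measured 6839.3, 5784.8 and 4532.4 in IVIg blood and 4925.2, 2794.9 and 6121.6 in vehicle blood, with groups that overlapped. With 1 usable array, modIVIg blood was not compared, and its Lcn2 and Clu bead signals were 10083.9 and 1683.4.

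The second Timp1 probe gave values of the same sign and smaller size. Fitted as its own row, its kidney difference was 0.04 ± 0.24 for modIVIg against vehicle and 0.14 ± 0.22 for modIVIg against IVIg, where the first probe gave 0.05 ± 0.26 and 0.27 ± 0.24 (SE, log2). For IVIg against vehicle it gave -0.10 ± 0.24 in kidney and -0.24 ± 0.63 in blood, where the first gave -0.22 ± 0.26 and -0.49 ± 0.64.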

How the data were processed

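RNA of kidney, liver and blood was hybridised to Illumina mouse BeadChips. The authors deposited, for each probe, an intensity (its bead signal), read with GenomeStudio 1.9.0 per the submitters' processing notes, and not normalised. The deposited detection p-value of each probe sets it against control beads, per the file headers. The authors' processed log2 values, normalised for each organ separately per the series' design text, served as an alternative. lumi and limma are named in the submitters' processing notes without their roles.

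Groups came from the sample titles. Of 25697 probes, 23978 had 1 symbol in the platform annotation, and 23962 matched a current gene entry. The function neqc corrected background and quantile-normalised the arrays of 1 organ at a time (limma 3.58.1, R 4.3.3, offset 16). For comparisons between organs all 30 arrays went in jointly. Probes stayed in when at least 4 liver, 3 kidney or 2 blood arrays had a detection p under 0.01. The kept probe with the highest mean stood for a gene. limma (lmFit, eBayes) was fitted with the treatments of an organ together, and p values were adjusted over all features. The kidney fit was tested on simulated data, with an outcome that is not given here. The number of arrays limits the precision.

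The 9 genes and the gene lists were chosen with earlier results of these data known. All 9 genes are named whatever their values; from the injury and the proximal tubule lists, the 2 highest and 2 lowest differences of each kidney comparison are named, and for Havcr1 and Lcn2 the 3 genes closest by Pearson's r.

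Kidney arrays with the same replicate number deviated together in all 10 pairs (r 0.587 to 0.849), which comes from the data and not from the labels. Arrays with different numbers were not set beside them. A pairing by number therefore cannot be told apart from the split between replicate numbers. In liver 6 of 12 pairs and in blood 2 of 3 passed 0.1, so the numbers were not taken as pairs there.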

Additional observations from a re-analysis of the deposited data

Results flagged for a closer look

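In groups of 4 arrays, a value was singled out when its gap to the nearest other array, divided by the range of the group, exceeded the 95% critical value of Dixon's test, which chance gives in about 1 of 20 groups. Of 34 groups tested, 4 met this. The groups share arrays and the ratio was not taken over all features, so this count is not set against that rate. Kidney IVIg replicate 3 was the lowest of its group for Lcn2 with a ratio of 0.993, for Sox9 with 0.883 and for Krt18 with 0.855. The bead signals on that array were 5765.2 for Lcn2, 118.3 for Sox9, which was not detected, and 236.2 for Krt18. Liver vehicle replicate 2 was the lowest of its group for Krt18 with a ratio of 0.902 and a bead signal of 4756.5.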

How the results depend on the processing

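No injury gene passed in any comparison of treatments, in kidney, liver or blood, or in any difference between kidney and liver changes, under any alternative run: no background correction, an offset of 50, no detection filter or detection on every array, a trended and robust prior, array weights, the authors' values, every probe, joint normalisation, only the groups compared, the replicate block, the kidney split as a block or within it, and each array left out. Of 2095 values of single genes, 1973 kept their sign. In kidney the replicate block gave Krt20 1.69 and Havcr1 1.24 for modIVIg minus vehicle, with limma adjusted p 0.8301 and 0.8346, and changed no call. It changed no call in liver, in blood or between organs.

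Between organs, requiring detection on every array left 3 genes called for kidney against liver (5 as reported, 4 to 6 under the remaining alternatives) and 1 for kidney against blood (6 as reported, 5 to 8 under the remaining ones), since fewer genes were then tested. With each organ normalised alone, kidney minus blood turned to 0.98 for Lcn2 and 2.37 for Timp1. Timp1 lost its call there without blood vehicle replicate 2, at -0.91 (limma adjusted p 0.0764). Lcn2 between kidney and liver passed or missed the threshold depending on the setting. Mice without LPS were not analysed, dim genes such as Sox9 lay close to background, and 3 or 4 arrays a group left wide intervals.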
